A study of Mus musculus with 14 samples.

Results

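The genes described here encode the enzymes of the tricarboxylic acid (TCA) cycle and the proteins that bring pyruvate into it, with the kinases and phosphatases that switch pyruvate dehydrogenase off and on. The list named 29 genes, and a gene was measured through array probe sets annotated to its symbol alone. By that rule 28 of the 29 had a probe set, and all 28 passed the filter on low values (log2 above 5.75 on at least 3 arrays), beside 12260 genes tested in all. The lowest value of any member on any array was 5.94, so no member passed through 1 group alone. Of the 28, 22 are enzymes or carriers and 6 are regulators (Pdk1, Pdk2, Pdk3, Pdk4, Pdp1 and Pdp2). Mpc2, a subunit of the mitochondrial pyruvate carrier, was not analysed here.

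RNA came from left ventricles of male C57BL/6 mice that were wild type (WT) or knockout (KO) for Hspb8, the gene of the small heat shock protein Hsp22 (H11 kinase). Hearts were taken in the basal state without pressure overload (3 WT and 3 KO arrays) or on day 3 of transverse aortic constriction (TAC), a narrowing of the aorta that loads the ventricle with pressure (4 WT and 4 KO arrays). The labels name no sham operation, and effects of the surgery and of the pressure cannot be told apart. The sources used here do not state the age, the part of Hspb8 that was removed or any pooling of animals. Nothing in the labels says that the arrays came from separate animals, so p-values measure only the spread between these samples, which may be technical. Each array was an Affymetrix mouse genome chip, a 1-colour array of short probes, and values are log2 expression per probe set after RMA, a method that corrects background, equalises arrays and sums probes.

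Basal and TAC arrays were made in separate runs, so TAC and run cannot be told apart in the comparisons of TAC with basal hearts. Of the basal arrays, KO 3 carries a different day from the rest. Array medians ran from 5.7 to 5.8, and precision is limited by how few arrays there are. Correlations between arrays were taken across the 21216 probe sets that passed the filter, which are not independent replicates. They ran from 0.982 to 0.985 within basal WT and from 0.985 to 0.986 within basal KO. Within TAC KO they ran from 0.967 to 0.990, and within TAC WT from 0.917 to 0.984. TAC WT 3 was the lowest array of its group for 22 of the 28 members. On 2 of its 3 probe sets Hspb8 was lower in KO by log2 -6.84 and -5.48 in basal hearts and by log2 -6.78 and -5.29 after TAC, and on the third, which stood for the gene among all genes and whose probes may match other transcripts, by log2 -1.08 and -0.60. Of 12 cardiomyocyte markers all passed the filter, and their mean log2 value lay between 13.63 and 14.15 on every array.

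In the heart, most ATP is made in mitochondria, where acetyl-CoA from fatty acids and from pyruvate is oxidised by the cycle. Pyruvate enters the matrix through the carrier of Mpc1 and Mpc2 and is turned into acetyl-CoA by the pyruvate dehydrogenase complex, or into oxaloacetate by pyruvate carboxylase. Pyruvate dehydrogenase kinases (Pdk) phosphorylate the complex and turn it off, and the phosphatases (Pdp) reverse this. Pdk4 is known as a target of the nuclear receptors that govern fatty acid use, and it is high in a heart that burns fat.

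Promoter sequences are shown for 4 members that fell after TAC in at least 1 genotype: Pdk2, Pdk4 and Pdp2, which regulate the complex, and Ogdh, the entry subunit of oxoglutarate dehydrogenase. Each is the 250 bases before an annotated start in RefSeq (GRCm38.p6), written 5′ to 3′ on the gene's strand, with matches to 4 searched motifs in capitals.

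Pdk2 (chr11:95041372-95041621, minus strand): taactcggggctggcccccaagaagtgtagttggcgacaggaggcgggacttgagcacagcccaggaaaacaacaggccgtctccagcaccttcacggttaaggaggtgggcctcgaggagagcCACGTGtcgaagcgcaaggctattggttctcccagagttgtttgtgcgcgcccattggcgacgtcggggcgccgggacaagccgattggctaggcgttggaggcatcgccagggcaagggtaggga

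Pdp2 (chr8:104591222-104591471, plus strand): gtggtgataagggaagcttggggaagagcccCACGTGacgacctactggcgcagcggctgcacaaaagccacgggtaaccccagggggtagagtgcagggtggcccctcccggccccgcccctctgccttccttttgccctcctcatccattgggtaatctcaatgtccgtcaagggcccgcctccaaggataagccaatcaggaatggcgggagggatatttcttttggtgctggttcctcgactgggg

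Ogdh (chr11:6291347-6291596, plus strand): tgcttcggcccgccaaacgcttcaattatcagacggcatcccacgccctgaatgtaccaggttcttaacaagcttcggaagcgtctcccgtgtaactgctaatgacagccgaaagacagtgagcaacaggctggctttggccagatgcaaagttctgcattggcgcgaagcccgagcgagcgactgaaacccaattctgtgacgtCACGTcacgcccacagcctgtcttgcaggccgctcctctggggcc

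Pdk4 (chr6:5496279-5496528, minus strand): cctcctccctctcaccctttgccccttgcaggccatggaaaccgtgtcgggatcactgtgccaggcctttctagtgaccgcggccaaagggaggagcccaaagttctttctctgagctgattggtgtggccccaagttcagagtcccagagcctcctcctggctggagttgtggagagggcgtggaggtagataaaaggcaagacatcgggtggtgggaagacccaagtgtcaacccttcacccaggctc

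The capitals mark ACGTG, the core of the hypoxia response element, which was searched on both strands and reads CACGT on the other one. Where both strands match, as in Pdk2 and Pdp2, the matches overlap and the capitals read CACGTG, the palindrome also known as the E-box. Pdk2 has another listed start, not printed here, whose window held no match to any searched motif. Counting every listed start, 8 of the 27 members with a promoter entry held ACGTG (Idh3g, Mdh1, Ogdh, Pcx, Pdhb, Pdk2, Pdk3 and Pdp2), beside 18.5% of all 27025 genes in the table. CCGGAAG, a motif of ETS factors such as GABP, was found in Idh3g and Mpc1 and in 7.83% of all genes. CGCATGCG, the core of the NRF1 motif, was found at another start of Ogdh and in 1.75% of all genes. TNAAGGTCA, the element of estrogen-related receptors, was in 0 of the 27 members and 1.3% of all genes. A match is a description of the letters in this window and was not tested as a binding site. For GC content and CpG pairs, each gene was given the highest value over its listed starts, which favours genes with many starts. The median GC content so taken was 62.8% for the members against 52.8% over all genes. By the same rule 9 of 27 members (33.3%) held 20 or more CpG pairs, against 19.7% of all genes.

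The first comparison sets WT ventricles on day 3 of TAC against those of the basal WT group. By limma, with Benjamini-Hochberg adjustment over all genes and a threshold of 0.05, 9 of the 28 fell (Idh2, Idh3g, Ogdh, Dlst, Suclg2, Pcx, Pdk2, Pdk4 and Pdp2) and 2 rose (Aco1 and Idh1). Over all genes 23.8% were called lower and 26.9% higher. The members' median log2 difference was -0.247, beside 0.018 over all genes, and 20 of 28 lay below 0. Among the 22 enzymes and carriers 6 fell and 2 rose, and among the 6 regulators 3 fell and 0 rose. Groups did not overlap for 8 lower members (24.3% of all genes) and for 1 higher member (25.5% of all genes). The count of 11 fell to 6 without basal WT 2, basal WT 3 or TAC WT 4, with 4, 5 and 4 of them lower. In those fits 39.2%, 41.1% and 43.0% of all genes were called in either direction, against 50.7% with all arrays. Fitted on the WT arrays alone the count was 4, with 1 higher and 3 lower, beside 39.4% of all genes. In that fit the calls of Idh1, Idh2, Idh3g, Ogdh, Suclg2, Pdk4 and Pdp2 failed (limma adjusted p from 0.0603 to 0.110).

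The second comparison asks the same in KO ventricles, with its own basal arrays. There 10 members fell (Cs, Ogdh, Dlst, Suclg2, Fh1, Dlat, Pdhx, Pcx, Pdk2 and Pdp2) and 2 rose (Aco1 and Pdk3), beside 21.8% of all genes called lower and 22.7% higher. The median over the members was log2 -0.358, beside -0.016 over all genes, and 24 of 28 lay below 0. Of the enzymes and carriers 8 fell and 1 rose, and of the regulators 2 fell and 1 rose. Groups did not overlap for 16 lower members (26.7% of all genes) and 3 higher ones (27.7% of all genes). Both genotypes called 7 members in the same direction: Aco1, higher, and Dlst, Ogdh, Pcx, Pdk2, Pdp2 and Suclg2, lower. The KO count of 12 was 6 without basal KO 2, 7 without TAC KO 4 and 19 without TAC WT 3, which enters through the shared estimate of spread. Of all genes 33.6%, 34.7% and 50% were called in those fits, against 44.5% with all arrays. Fitted on the KO arrays alone the count was 19, beside 49.9% of all genes.

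**Figure D1:**
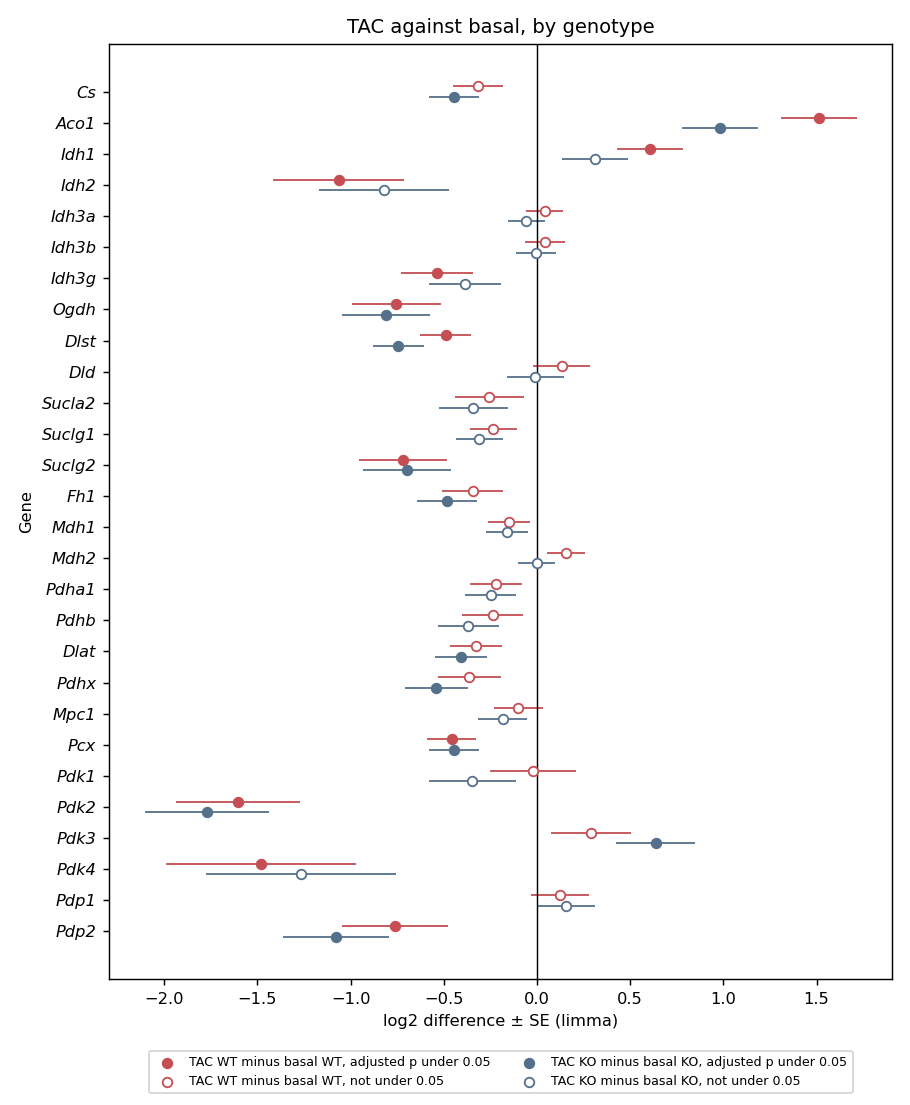
Each member's log2 difference between TAC and basal hearts on the x axis, with its standard error (SE, limma), in WT (4 against 3 arrays) and in KO (4 against 3 arrays); filled points have an adjusted p under 0.05. Most members lie left of 0 in both genotypes, Pdk2 the farthest at log2 -1.61 and -1.77, and Aco1 lies farthest right at log2 1.51 and 0.98.

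Within the TAC groups the arrays did not stand at one level. The mean log2 value of the 22 enzymes and carriers was 12.12, 12.02, 11.48 and 11.78 on TAC WT 1 to 4, against 12.00 to 12.09 in basal WT and 11.99 to 12.05 in basal KO. On TAC KO 1 to 4 it was 11.90, 11.70, 11.78 and 11.58, so that every TAC KO array, but only TAC WT 3 and 4, lay below all basal arrays. TAC WT 3 was the lowest of its group for 22 of the 28 members and TAC WT 1 the highest for 21, and in TAC KO array 4 was the lowest for 22 and array 1 the highest for 20. The median SD between arrays was 0.327 in TAC WT and 0.158 in TAC KO, against 0.080 in basal WT and 0.086 in basal KO.

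Markers of other cells moved over the same arrays. The summed level of 12 macrophage markers, given as their mean log2 value, was 8.18 to 8.48 in basal WT, 8.57 to 8.68 in basal KO, 9.82 to 10.02 in TAC KO, and 8.84, 9.18, 10.57 and 9.30 on TAC WT 1 to 4. Of these markers 10 of 12 were higher after TAC in either genotype, as were 7 of 10 fibroblast markers (2 were lower in WT) and 5 of 6 markers of dividing cells, and 5 of 10 endothelial markers in WT and 4 of 10 in KO were lower. The dividing-cell mean was 6.55 on TAC WT 1, against 6.10 to 6.26 in basal WT, and 7.69 to 9.92 on the other TAC WT arrays. The mean of 12 cardiomyocyte markers was 14.14, 14.15, 13.63 and 13.89 on TAC WT 1 to 4, and 1 of the 12 rose and 1 fell in WT while 2 fell in KO, Ckm among them in both. Atrial markers moved too, with 6 of 7 below 0 after TAC in each genotype and medians of log2 -2.557 in WT and -1.935 in KO. Their mean log2 value was 10.77 to 11.05 in basal WT and 8.44 to 11.55 in basal KO. On the TAC arrays it was 7.05 to 10.14 in WT and 7.21 to 9.79 in KO. Every listed marker of macrophages, fibroblasts and cardiomyocytes passed the filter, and the part of these shifts in the members' differences was not tested. In whole ventricles, fewer cells of a type and less RNA per cell cannot be told apart.

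**Figure D2:**
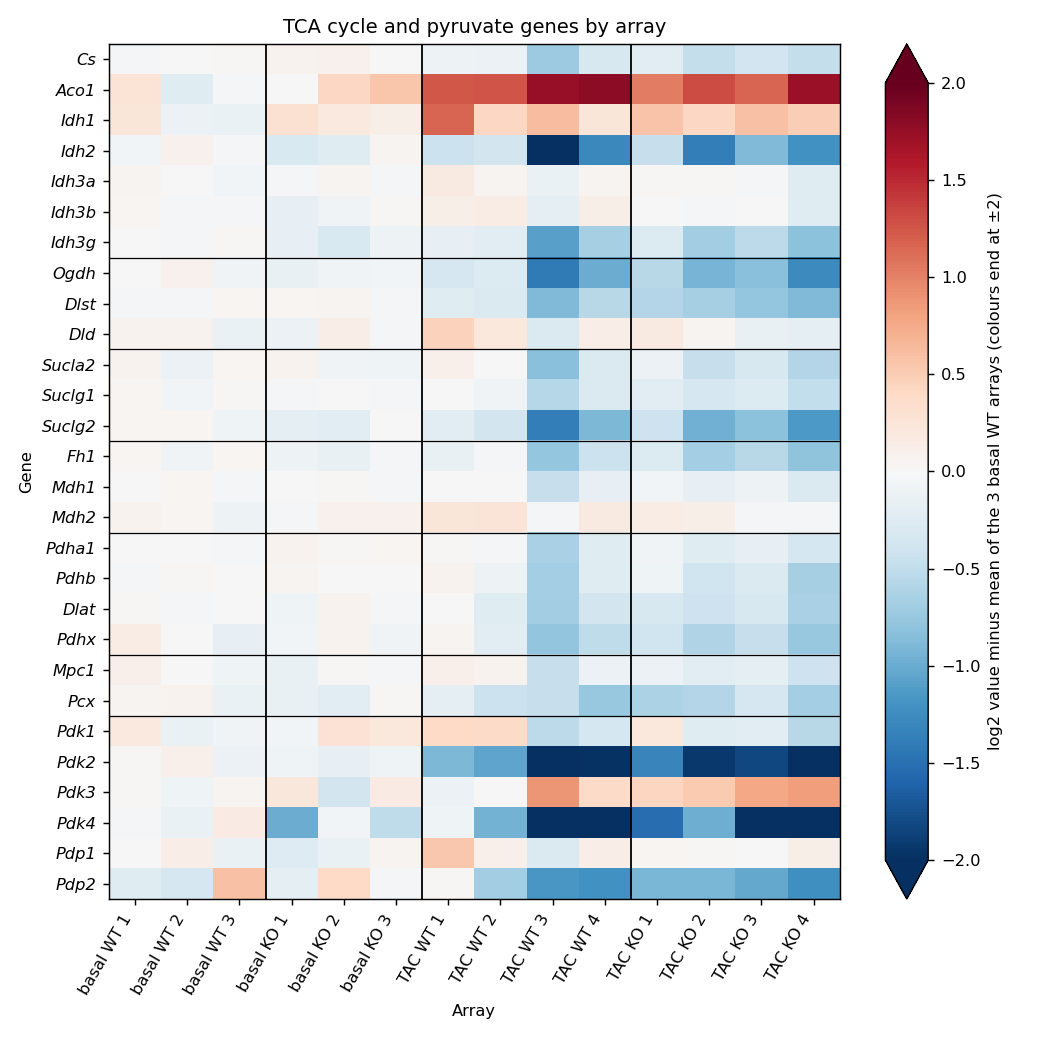
Each member (rows, grouped by role) on each array (columns), as its log2 value minus the mean of the 3 basal WT arrays; colours end at a difference of 2 either way. Basal columns are near white for most members, TAC WT 1 and 2 are pale for most enzymes, TAC WT 3 and TAC KO 4 are the bluest in their groups, and Aco1 is red on all 8 TAC arrays.

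Among members that passed, regulators of pyruvate dehydrogenase held the 2 largest falls in each genotype, those of Pdk2 and Pdk4 in WT and of Pdk2 and Pdp2 in KO. Pdk2 (chromosome 11, 95026258 to 95041371 in GRCm38.p6), a kinase of the complex that is abundant in heart, read 11.84, 11.91 and 11.69 in basal WT and 10.91, 10.76, 9.32 and 9.84 on TAC WT 1 to 4. It read 11.72, 11.65 and 11.73 in basal KO and 10.50, 9.88, 10.00 and 9.33 on TAC KO 1 to 4. Every TAC array lay below every basal array of either genotype. Pdk2 was 3.04-fold lower in WT (log2 -1.61, SE 0.33, adjusted p = 0.0020) and 3.42-fold lower in KO (log2 -1.77, SE 0.33, adjusted p = 0.0015), and it was called in each of the 25 alternatives run for either genotype. For any member, the alternatives that left out an array of the other genotype could not move the log2 difference. Without TAC WT 3 the WT difference was log2 -1.31.

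Pdk4 (chromosome 6, 5483351 to 5496278), the kinase that responds to fasting and fatty acids, read 12.64, 12.54 and 12.83 in basal WT and 12.58, 11.72, 10.26 and 10.20 on TAC WT 1 to 4. It read 11.67, 12.61 and 12.16 in basal KO and 11.15, 11.70, 10.37 and 10.30 on TAC KO 1 to 4. TAC WT 1 stood within the basal range while TAC WT 3 and 4 were the lowest of their group, and the groups overlapped in both genotypes. The fall passed in WT (log2 -1.48, SE 0.51, adjusted p = 0.0280), and KO read log2 -1.27 (SE 0.51, adjusted p = 0.0579). In KO it passed with the replicate number as a block (adjusted p = 0.0075), although the numbers were not taken as pairs. The WT call failed without any 1 of basal WT 1, 2 or 3 or TAC WT 3 or 4 (adjusted p from 0.0589 to 0.0795, and from 0.0023 to 0.0894 over all 25 alternatives), while the difference was log2 -1.94 without TAC WT 1. The KO value passed without TAC WT 1, 3 or 4 or TAC KO 2, with adjusted p from 0.0197 to 0.0443, and its 25 alternatives ran from 0.0049 to 0.183.

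Pdp2 (chromosome 8, 104591472 to 104599026), a phosphatase that reactivates the complex, read 6.92, 6.83 and 7.75 in basal WT and 7.19, 6.47, 6.01 and 5.95 on TAC WT 1 to 4. It read 6.99, 7.56 and 7.12 in basal KO and 6.25, 6.25, 6.14 and 5.94 on TAC KO 1 to 4. The groups overlapped in WT through TAC WT 1 and did not overlap in KO. Pdp2 fell in both, by log2 -0.76 in WT (SE 0.28, adjusted p = 0.0387) and by log2 -1.08 in KO (SE 0.28, adjusted p = 0.0091), at levels close to the filter of 5.75. The WT call failed without basal WT 3 (log2 -0.47, adjusted p = 0.198) and without TAC WT 2, 3 or 4 (adjusted p of 0.0547, 0.0948 and 0.105), with 0.0030 to 0.198 over its 24 alternatives.

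Pdk3 (X chromosome, 93764616 to 93832150), a kinase better known outside the heart, was near the filter too. It read 6.62, 6.03 and 6.55 in basal KO and 6.83, 6.92, 7.17 and 7.23 on TAC KO 1 to 4. In WT it read 6.42, 6.31 and 6.45 in basal hearts and 6.28, 6.40, 7.27 and 6.78 after TAC, where arrays 1 and 2 stood at the basal level and arrays 3 and 4 above it. Pdk3 rose in KO (log2 0.64, SE 0.21, adjusted p = 0.0275), without overlap, and WT read log2 0.29 (adjusted p = 0.266). The KO call failed without basal KO 2 (log2 0.45, adjusted p = 0.133), TAC KO 3 (adjusted p = 0.0633) or TAC KO 4 (adjusted p = 0.0706), with 0.0013 to 0.133 over its 24 alternatives, and the WT difference was log2 0.09 without TAC WT 3.

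Pdk1, the kinase induced by low oxygen, and Pdp1, the calcium-responsive phosphatase, were not called on the probe sets that stood for them. Pdk1 read log2 -0.02 in WT (adjusted p = 0.940) and -0.35 in KO (adjusted p = 0.233), and Pdp1 read log2 0.12 and 0.16. Another probe set of Pdk1 was higher by log2 1.43 in WT and 1.12 in KO, with adjusted p over all probe sets of 1.4e-05 and 8.7e-05, while yet another read log2 0.07 in both. The direction of Pdk1 after TAC therefore differed between its probe sets. A second probe set of Pdp1 was higher in WT by log2 0.50 (adjusted p = 0.0452 over all probe sets).

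**Figure D3:**
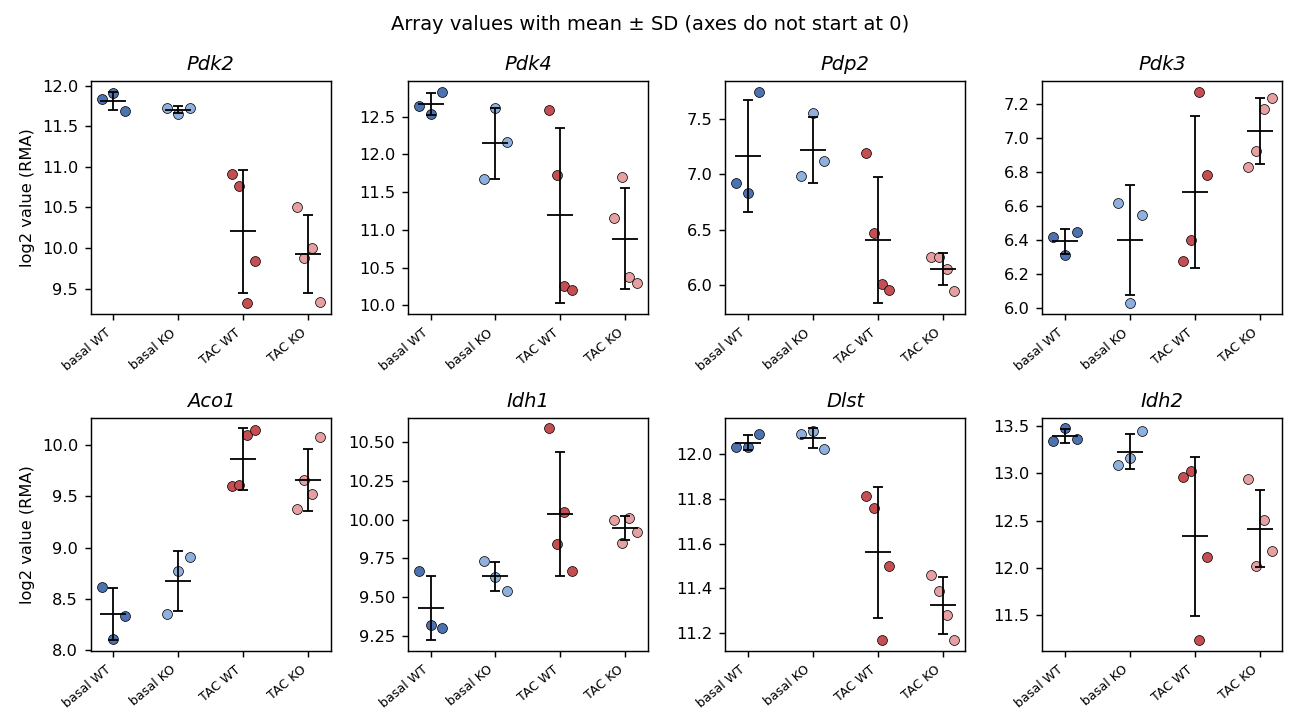
Log2 values of 8 members on each array (points, in array order within a group) with the mean and SD of each group (bars), for 3 basal WT, 3 basal KO, 4 TAC WT and 4 TAC KO arrays; each panel has its own axis, which does not start at 0. Pdk2 and Dlst show TAC arrays below all basal ones, Aco1 shows them above, and Pdk4 and Pdp2 show TAC WT 1 within the basal range.

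At the first steps of the cycle the members moved in both directions. Aco1 (chromosome 4, 40143265 to 40199009), the cytosolic aconitase that also acts as an iron regulatory protein, read 8.62, 8.11 and 8.33 in basal WT and 9.60, 9.61, 10.10 and 10.15 on TAC WT 1 to 4. It read 8.35, 8.77 and 8.91 in basal KO and 9.38, 9.66, 9.52 and 10.08 on TAC KO 1 to 4. Every TAC array lay above every basal array. Aco1 rose 2.85-fold in WT (log2 1.51, SE 0.20, adjusted p = 0.00017) and 1.98-fold in KO (log2 0.98, SE 0.20, adjusted p = 0.0026). The probes of this set may match other transcripts, and the gene's other probe set rose by log2 0.53 in WT and 0.52 in KO.

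Idh1, the cytosolic NADP-dependent isocitrate dehydrogenase, read 9.67, 9.32 and 9.30 in basal WT and 10.59, 9.84, 10.05 and 9.67 on TAC WT 1 to 4. It read 9.73, 9.63 and 9.54 in basal KO and 10.00, 9.85, 10.01 and 9.92 on TAC KO 1 to 4. TAC WT 4 met the highest basal WT value, and the KO groups did not overlap. Idh1 rose in WT (log2 0.61, SE 0.18, adjusted p = 0.0125), lost without basal WT 3 (adjusted p = 0.0507), and read log2 0.31 in KO (adjusted p = 0.163), which passed without TAC WT 1 (adjusted p = 0.0488). Over 25 alternatives the adjusted p of Idh1 ran from 0.0010 to 0.0621 in WT and from 0.0095 to 0.326 in KO. Its second probe set was higher in both, by log2 1.19 and 0.93.

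Idh2, the NADP-dependent enzyme of the mitochondrial matrix, went the other way. It read 13.34, 13.48 and 13.37 in basal WT and 12.96, 13.03, 11.23 and 12.11 on TAC WT 1 to 4. In KO it read 13.09, 13.16 and 13.45 in basal hearts and 12.94, 12.02, 12.51 and 12.18 after TAC. Neither genotype's groups overlapped, and TAC WT 3 was the lowest of all arrays. Idh2 fell in WT (log2 -1.06, SE 0.35, adjusted p = 0.0229) and read log2 -0.82 in KO (SE 0.35, adjusted p = 0.0717). The WT value was log2 -0.70 without TAC WT 3, and it failed without basal WT 2 (adjusted p = 0.0671), basal WT 3 (0.0544) or TAC WT 4 (0.0539). The KO value passed without TAC WT 3 (adjusted p = 0.0119) or TAC KO 1 (0.0427). Over 25 alternatives the adjusted p ran from 0.0037 to 0.0855 in WT and from 0.0088 to 0.187 in KO. The other Idh2 probe set was lower by log2 -0.54 in WT and -0.55 in KO, both called over all probe sets.

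Cs, citrate synthase, which joins acetyl-CoA to oxaloacetate, read 13.46, 13.47 and 13.39 in basal KO and 13.15, 12.91, 13.00 and 12.91 on TAC KO 1 to 4. It read 13.35, 13.39 and 13.41 in basal WT and 13.28, 13.27, 12.66 and 13.06 on TAC WT 1 to 4. The groups overlapped in neither genotype, but TAC WT 1 and 2 lay just below basal. Cs fell in KO (log2 -0.45, SE 0.13, adjusted p = 0.0170), lost without basal KO 1 or 2 (adjusted p = 0.0501 and 0.0519), and read log2 -0.32 in WT (SE 0.13, adjusted p = 0.0637). The WT value passed without TAC WT 1 (log2 -0.39, adjusted p = 0.0295) or TAC WT 2 (log2 -0.38, adjusted p = 0.0377), and its 25 alternatives ran from 0.0157 to 0.171, against 0.00058 to 0.0519 in KO. Its other probe set was lower in both, by log2 -0.61 and -0.68.

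The subunits of the NAD-dependent isocitrate dehydrogenase, an enzyme of 3 kinds of subunit that sets the pace of the cycle, did not read alike. Idh3g read 13.12, 13.07 and 13.14 in basal WT and 12.95, 12.88, 12.03 and 12.44 on TAC WT 1 to 4, and 12.94, 12.80 and 13.01 in basal KO and 12.84, 12.42, 12.58 and 12.29 on TAC KO 1 to 4. TAC WT 3 was the lowest, and the groups overlapped in KO alone. Idh3g fell in WT (log2 -0.54, SE 0.19, adjusted p = 0.0340) and read log2 -0.38 in KO (adjusted p = 0.118). The WT call was lost in 9 of 25 alternatives, among them without basal WT 1, 2 or 3 or TAC WT 4 (adjusted p from 0.0698 to 0.0837) and without TAC WT 3 (log2 -0.35, adjusted p = 0.0792). The KO value passed without TAC WT 3 (adjusted p = 0.0415), and the alternatives ran from 0.0104 to 0.0909 in WT and from 0.0259 to 0.258 in KO.

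Idh3a and Idh3b, the catalytic and a regulatory subunit, read between log2 -0.06 and 0.04 in both genotypes on the probe sets that stood for them. For Idh3a, 2 others were lower, by log2 -0.73 and -0.74 in WT and by log2 -0.94 and -0.96 in KO, all called over all probe sets. For Idh3b, 2 others were higher in WT, by log2 0.55 and 0.47, and in KO they read log2 0.24 and -0.33. The difference of these subunits thus depended on the probe set.

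Oxoglutarate dehydrogenase, the next complex, turns 2-oxoglutarate into succinyl-CoA with subunits Ogdh, Dlst and Dld, of which Dld is shared with pyruvate dehydrogenase. Ogdh, whose promoter is printed above, read 13.02, 13.11 and 12.95 in basal WT and 12.69, 12.75, 11.61 and 12.04 on TAC WT 1 to 4. It read 12.88, 12.96 and 12.97 in basal KO and 12.47, 12.09, 12.19 and 11.76 on TAC KO 1 to 4. All TAC arrays were below all basal ones, with TAC WT 3 the lowest. Ogdh fell by log2 -0.75 in WT (SE 0.24, adjusted p = 0.0181), lost without basal WT 2 (adjusted p = 0.0590), and by log2 -0.81 in KO (SE 0.24, adjusted p = 0.0152). Over 25 alternatives the adjusted p ran from 0.0069 to 0.118 in WT and from 0.00066 to 0.0458 in KO.

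Dlst, the succinyl-transferring core, read 12.03, 12.03 and 12.09 in basal WT and 11.81, 11.76, 11.17 and 11.50 on TAC WT 1 to 4. It read 12.09, 12.10 and 12.02 in basal KO and 11.46, 11.39, 11.28 and 11.17 on TAC KO 1 to 4. No TAC array reached a basal one. Dlst fell by log2 -0.49 in WT (SE 0.14, adjusted p = 0.0101) and by log2 -0.74 in KO (SE 0.14, adjusted p = 0.0014), and it was called in each of the 25 alternatives in both. Dld, the lipoamide dehydrogenase, read log2 0.13 in WT (adjusted p = 0.487) and -0.01 in KO (adjusted p = 0.969).

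Of the succinyl-CoA ligase, which makes ATP or GTP from succinyl-CoA, the GTP-forming beta subunit Suclg2 was the member called. It read 11.68, 11.68 and 11.54 in basal WT and 11.40, 11.27, 10.25 and 10.73 on TAC WT 1 to 4, and 11.45, 11.42 and 11.63 in basal KO and 11.22, 10.68, 10.82 and 10.49 on TAC KO 1 to 4. Neither genotype's groups overlapped. Suclg2 fell by log2 -0.72 in WT (SE 0.24, adjusted p = 0.0221) and by log2 -0.70 in KO (SE 0.24, adjusted p = 0.0290). The WT call failed without basal WT 1 or 2 or TAC WT 4 (adjusted p from 0.0544 to 0.0634), and the KO call without any basal KO array or TAC KO 2, 3 or 4 (adjusted p from 0.0518 to 0.0923). On the gene's other probe set, less open to matches with other transcripts, the WT value was log2 -0.38 (adjusted p = 0.142). Over 25 alternatives the adjusted p ran from 0.0057 to 0.142 in WT and from 0.0016 to 0.0923 in KO.

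The alpha subunit Suclg1 read log2 -0.23 in WT (adjusted p = 0.135) and -0.31 in KO (adjusted p = 0.0611), and the ATP-forming Sucla2 read log2 -0.26 (adjusted p = 0.260) and -0.34 (adjusted p = 0.147). Their TAC arrays ran from 11.65 to 12.22 and from 11.63 to 12.57 in WT, and from 11.73 to 12.02 and from 11.88 to 12.34 in KO. The KO groups of both did not overlap. In KO, Suclg1 passed without TAC WT 1 (adjusted p = 0.0469) and both passed without TAC WT 3 (adjusted p = 0.0192 and 0.0383), with 0.0107 to 0.147 and 0.0303 to 0.301 over 25 alternatives.

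In the last steps, Fh1, fumarase, read 12.66, 12.62 and 12.73 in basal KO and 12.49, 12.09, 12.21 and 11.96 on TAC KO 1 to 4. It read 12.81, 12.69 and 12.80 in basal WT and 12.62, 12.74, 12.00 and 12.33 on TAC WT 1 to 4, where array 2 stood within the basal range. Fh1 fell in KO (log2 -0.48, SE 0.16, adjusted p = 0.0290) and read log2 -0.34 in WT (adjusted p = 0.0918). The KO call failed without any basal KO array or TAC KO 2, 3 or 4 (adjusted p from 0.0509 to 0.0845), and the WT value passed without TAC WT 2 (log2 -0.45, adjusted p = 0.0350). Over 25 alternatives the adjusted p ran from 0.0032 to 0.0845 in KO and from 0.0350 to 0.441 in WT.

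The malate dehydrogenases of cytosol (Mdh1) and matrix (Mdh2), which interconvert malate and oxaloacetate, were not called on the probe sets that stood for them. Mdh1 read log2 -0.15 in WT and -0.16 in KO. Its values ran from 13.63 to 14.10 in TAC WT against 14.06 to 14.12 in basal WT. In KO they ran from 13.80 to 14.03 after TAC against 14.07 to 14.11 in basal hearts, without overlap. With the mean of its probe sets, Mdh1 read log2 0.092 in WT. Mdh2 read log2 0.16 in WT and -0.00 in KO on 1 probe set, and log2 -0.35 in both on the other, which was called over all probe sets (adjusted p = 0.0364 and 0.0428).

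For the pyruvate dehydrogenase complex, 0 of 4 subunits were called in WT and 2 of 4 in KO, with all 4 below 0 in both. Dlat, the acetyl-transferring core, read 11.78, 11.94 and 11.82 in basal KO and 11.54, 11.45, 11.55 and 11.21 on TAC KO 1 to 4, and 11.89, 11.83 and 11.87 in basal WT and 11.86, 11.62, 11.17 and 11.50 on TAC WT 1 to 4. Dlat fell in KO (log2 -0.41, SE 0.14, adjusted p = 0.0310) and read log2 -0.33 in WT (adjusted p = 0.0676), which passed without TAC WT 1 (log2 -0.43, adjusted p = 0.0136). TAC WT 1 stood within the basal range, and the KO groups did not overlap. The KO call failed without any basal KO array or TAC KO 2 or 4 (adjusted p from 0.0533 to 0.101), and the 25 alternatives ran from 0.0057 to 0.101 in KO and from 0.0136 to 0.198 in WT.

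Pdhx, the protein that binds Dld to that core, read 10.42, 10.55 and 10.41 in basal KO and 10.08, 9.87, 10.01 and 9.72 on TAC KO 1 to 4. It read 10.62, 10.49 and 10.32 in basal WT and 10.53, 10.27, 9.68 and 9.97 on TAC WT 1 to 4, with overlap through array 1. Pdhx fell in KO (log2 -0.54, SE 0.17, adjusted p = 0.0207), lost without basal KO 2 (adjusted p = 0.0698) or TAC KO 4 (0.0572), and read log2 -0.36 in WT (adjusted p = 0.0859), which passed without TAC WT 1 (log2 -0.50, adjusted p = 0.0132). Over 25 alternatives the adjusted p ran from 0.0018 to 0.0698 in KO and from 0.0132 to 0.251 in WT.

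The decarboxylase subunits Pdha1 and Pdhb were not called on the probe sets that stood for them. Pdha1 read log2 -0.22 in WT and -0.25 in KO (adjusted p = 0.197 and 0.155), and Pdhb read log2 -0.24 and -0.37 (adjusted p = 0.231 and 0.0801). Without TAC WT 3 both passed in KO (adjusted p = 0.0425 and 0.0268), and without TAC KO 1 so did Pdhb (0.0406), with 0.0287 to 0.295 and 0.0152 to 0.207 over 25 alternatives. The other probe set of Pdha1, the subunit that the kinases phosphorylate, was lower by log2 -0.55 in WT and -0.55 in KO (adjusted p over all probe sets 0.0056 and 0.0072).

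Where pyruvate crosses into the matrix, Mpc1 read log2 -0.10 in WT (adjusted p = 0.535) and -0.19 in KO (adjusted p = 0.262), with TAC values from 12.50 to 13.07 against 12.81 to 13.06 over both basal groups. Pcx, pyruvate carboxylase, read 7.80, 7.82 and 7.61 in basal WT and 7.55, 7.32, 7.29 and 6.98 on TAC WT 1 to 4, and 7.59, 7.53 and 7.77 in basal KO and 7.11, 7.15, 7.41 and 7.07 on TAC KO 1 to 4. All TAC arrays lay below the basal arrays of their genotype. Pcx fell by log2 -0.46 in WT (SE 0.13, adjusted p = 0.0126) and by log2 -0.45 in KO (SE 0.13, adjusted p = 0.0171). The WT call was kept in each of 25 alternatives, and the KO call failed without basal KO 3 (log2 -0.38, adjusted p = 0.0725, and 0.0068 to 0.0725 over 25 alternatives).

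Probe sets of one gene can target different ends or splice forms of its transcripts. Of 61 member probe sets 55 passed the filter, and 17 members had 2 or more. In WT, 16 of the 55 were called lower and 8 higher (22.1% and 28.3% of all probe sets), and in KO 22 lower and 5 higher (20.7% and 23.5%). Of the 17 members with several probe sets, 11 in WT and 8 in KO had some called and others not, and 0 had calls in both directions. Dlst had 2 others, lower by log2 -0.35 (called) and -0.19 in WT and by log2 -0.56 and -0.81 in KO (both called). Another probe set of Ogdh read log2 -0.25 in WT and was lower by log2 -0.91 in KO. The widest span within a gene was that of Pdk1, log2 1.45 in WT and 1.46 in KO. Taking a member as called when any of its probe sets passed gave 18 of 28 members in each genotype, beside 61.6% of all genes in WT and 55.1% in KO. Among genes with 2 or more kept probe sets this rule called 14 of 17 members in WT and 12 of 17 in KO, beside 77.4% and 72.4% of all such genes.

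The third comparison sets KO against WT in basal hearts. None of the 28 members passed by limma, as 0% of all genes did. At an unadjusted p under 0.05 there were 707 genes (5.77%) and 0 members. The median over the members was log2 -0.017, beside 0.013 over all genes. The 95% intervals of the difference lay within 1 log2 unit of 0 for 27 of 28 members, with a median half-width of log2 0.375. The exception was Pdk4, at log2 -0.52 with an interval from -1.70 to 0.65, whose basal KO arrays ran from 11.67 to 12.61 and basal WT arrays from 12.54 to 12.83. All these intervals use 1 spread per gene shared by the 4 groups, so they do not measure the spread among basal arrays alone. The members' median SD was 0.080 in basal WT and 0.086 in basal KO, against 0.327 in TAC WT and 0.158 in TAC KO.

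The fourth comparison sets KO against WT after TAC, within a run. Again 0 of 28 members passed by limma, where 1 of all genes did (0.00816%; Fbln5, an elastic fibre protein outside these lists, higher by log2 0.96), and at an unadjusted p under 0.05 there were 998 genes (8.14%) and 0 members. Of the members 25 read below 0, with a median of log2 -0.111, beside 6579 of 12260 genes and a median of -0.018. In the same comparison all 12 macrophage markers (median log2 0.422) and all 10 fibroblast markers (median log2 0.524) read above 0, with 0 passing, and their part in the members' values was not tested. The most negative was Pdk4 (log2 -0.31, interval -1.33 to 0.71), followed by Pdk2 (log2 -0.28, interval -0.94 to 0.38), and the most positive was Pdk3 (log2 0.36, interval -0.07 to 0.78). The intervals lay within 1 log2 unit of 0 for 27 members, with a median half-width of log2 0.325. With array weights, which count arrays that stray from their group for less, 10 members passed (Cs, Ogdh, Dlst, Dld, Fh1, Mdh2, Mpc1, Pdk1 and Pdk2 lower and Pdk3 higher in KO), as 23.5% of all genes did.

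**Figure D4:**
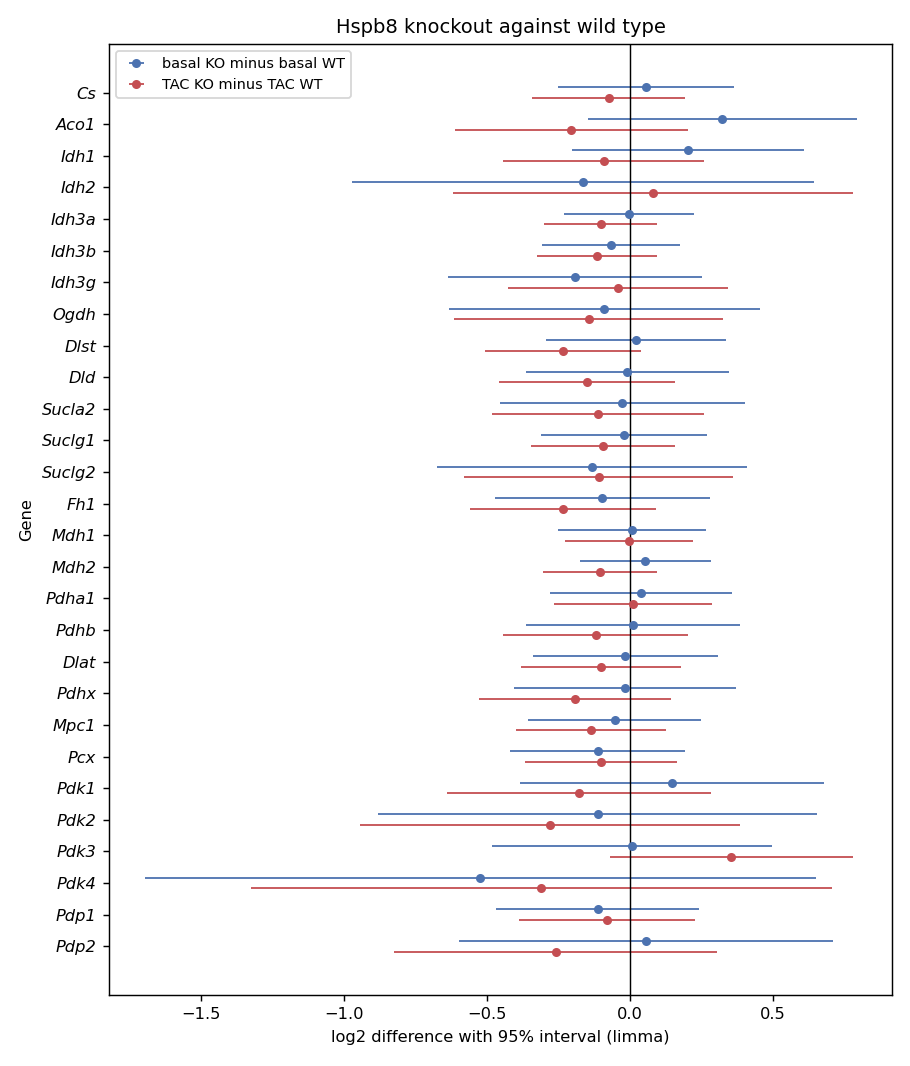
KO minus WT log2 difference of each member (x axis) with its 95% interval from limma, in basal hearts (3 against 3 arrays) and after TAC (4 against 4 arrays). All intervals cross 0, most basal points lie near it, and 25 of 28 TAC points lie left of it.

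The last test asks whether the genotype difference after TAC departed from that in basal hearts. None of the 28 members passed by limma, as 0% of all genes did, and at an unadjusted p under 0.05 there were 952 genes (7.77%) and 0 members. The members' median was log2 -0.085, beside -0.028 over all genes, and the intervals had a median half-width of log2 0.496 and lay within 1 log2 unit for 22 of 28. For Aco1, which rose in both genotypes, the difference of differences was log2 -0.53 (interval -1.15 to 0.09), and for Pdk2 it was log2 -0.17 (interval -1.18 to 0.85). A member called in 1 genotype and not in the other was therefore not shown to differ between them.

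Genes around the cycle were read from 5 further lists. Named genes are at most the 3 of smallest p in a comparison. Of succinate dehydrogenase, the cycle enzyme built into the respiratory chain, 2 of 4 subunits fell in WT (Sdha, log2 -0.51, and Sdhb, log2 -0.38) and 2 of 4 in KO (Sdhb, log2 -0.40, and Sdhc, log2 -0.48). Of 9 genes of the malate-aspartate shuttle and related carriers, 7 fell in WT and 6 in KO, with none higher. Got2, the mitochondrial aspartate aminotransferase, fell by log2 -0.77 and -0.78, and Slc25a22, a glutamate carrier, by log2 -0.61 and -0.83. Median differences of that list were log2 -0.502 and -0.550.

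Of 16 genes of anaplerosis and lactate use, 5 fell and 1 rose in WT, and 7 fell and 2 rose in KO. Pccb, a subunit of propionyl-CoA carboxylase, fell by log2 -0.98 and -0.92, and Me3, a mitochondrial malic enzyme, by log2 -1.05 in both. Slc16a1, a carrier of lactate and pyruvate across the cell membrane, rose by log2 0.73 and 0.52. Of 9 genes for the lipoic acid and thiamine cofactors of the dehydrogenase complexes, 2 fell in WT and 3 fell and 1 rose in KO. Bola3 and Iba57, which help to assemble the iron-sulfur clusters needed to make lipoic acid, fell in both, by log2 -0.51 and -0.60 in WT and by log2 -0.80 and -0.73 in KO.

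Of 10 factors known to act on Pdk4 transcription, 5 fell in WT and 7 in KO, with none higher and medians of log2 -0.587 and -0.690. Ppargc1a, a coactivator of oxidative genes, fell by log2 -2.24 in WT (SE 0.43, adjusted p = 0.0014) and -1.69 in KO (SE 0.43, adjusted p = 0.0081). Ppard, a fatty acid sensor, fell by log2 -0.79 and -1.16, and Esrra, an estrogen-related receptor, by log2 -0.46 and -0.64. Rxra, the partner of the PPAR receptors, fell by log2 -0.80 and -0.82. The background shares given above for calls in either genotype hold for these lists too.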

How the data were processed

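Left ventricular RNA was measured on 14 arrays in 4 groups taken from the sample titles. The deposited values are log2 expression per probe set made by the authors with RMA, per the submitters' processing notes; its version, and whether basal and TAC arrays were normalized as 1 set, is unknown here. Of 45101 probe sets, 64 were controls, 34945 had 1 gene symbol in the platform annotation, 932 several and 9211 none, and 34741 were matched to RefSeq by gene number. Probe sets above the table's median (log2 5.75) in at least 3 arrays were kept (21216), and of a gene's kept probe sets the brightest on average stood for it. The 4 group means were fitted with limma 3.58.1 in R 4.3.3 (10 residual and 3.43 prior degrees of freedom), with Benjamini-Hochberg adjustment over 12260 genes and a threshold of 0.05. The 95% intervals come from the same fit. The simulated data on which the fit was run held shifts in TAC WT alone and 1 spread per gene over all groups. How often the intervals hold the true difference was not tested. The difference of a probe set was also tested over all kept probe sets.

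The rule for named genes was all members, with every array's value where a member passed, Hspb8, and at most 3 genes with the smallest p of each pathway list in a comparison. Marker lists of cardiomyocytes, macrophages, fibroblasts, endothelium, dividing cells, smooth muscle and pericytes, adipocytes and atrial cardiomyocytes were set beside the results. Of 8 smooth muscle and pericyte markers, 2 rose and 1 fell in WT and 3 rose and 1 fell in KO; of 3 adipocyte markers 1 fell in WT and 0 in KO; and of 7 atrial markers 3 fell in WT and 1 in KO. The members and lists were chosen with earlier results of these data known. Alternatives were no filter, a stricter filter (log2 7.7), the mean of probe sets, probe sets outside the classes that can bind other transcripts, every probe set, quantile normalization, median centring, a fit on the comparison's arrays alone, weights per array, a robust fit with an intensity trend, a block on the replicate number, leaving out each array, and, chosen after seeing the data, leaving out TAC WT 3 and basal KO 3 together.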

Additional observations from a re-analysis of the deposited data

Results flagged for a closer look

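Of 56 groups of 4 arrays looked at among the members, 1 held an array far from the rest, where chance alone gives about 1 in 20. Idh3b read 11.48 on TAC WT 3, against 11.79 on the nearest TAC WT array. That gap was 0.912 of the group's whole range. TAC WT 3 was also the lowest TAC WT array for 22 of the 28 members.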

How the results depend on the processing

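Over both TAC comparisons the members' differences were refitted 1396 times, of which 1247 kept their direction and side of the threshold, 67 lost a call, 48 gained one and 34 changed sign. Many of these refits could not move the difference, so the share kept is no measure of robustness. Leaving out an array of the other genotype changed the shared spread alone. For the 11 members with 1 kept probe set, the choices among probe sets used the same values. All 34 changes of sign were of members not called with all arrays, and 1 of them passed when turned, Pdk1 in WT at log2 0.49 with the mean of its probe sets. That setting also turned Idh3a, Mdh1 and Mdh2 in WT (log2 -0.44, 0.092 and -0.098) and Pdk1 in KO (0.28), and leaving out cross-binding probe sets turned Idh3b in KO (0.24). Quantile normalization turned Idh3b, Dld and Pdp1 in WT (log2 -0.095, -0.033 and -0.067) and Idh3a and Mdh2 in KO (0.0046 and 0.088). Array weights turned Mpc1 and Pdk1 in WT (log2 0.049 and 0.29) and Idh3b in KO (0.055). Without TAC WT 3 and basal KO 3 together, Mpc1 and Pdk1 in WT read log2 0.02 and 0.14 and Idh3b and Mdh2 in KO read 0.04 and 0.02. With 1 array left out, log2 differences on both sides of 0 were found in WT for Idh3a (-0.0067 to 0.10), Mpc1 (-0.17 to 0.02), Pdk1 (-0.16 to 0.14) and Pdp1 (-0.013 to 0.26), and in KO for Idh3a (-0.087 to 0.0033), Idh3b (-0.05 to 0.053), Dld (-0.077 to 0.06) and Mdh2 (-0.038 to 0.03). In WT, 11 members passed, against 18 with every probe set, 4 with the comparison's arrays alone, 7 without TAC WT 3 and basal KO 3 together, and 6 to 14 when 1 array was left out (6 without basal WT 2, basal WT 3 or TAC WT 4). Of all genes 50.7% were called in WT, against 39.4% with the comparison's arrays alone and 42.1% without those 2 arrays. The share was 39.2% to 55.8% when 1 array was left out, and 61.6% of genes had a call on any of their probe sets. In KO, 12 passed, against 19 with the comparison's arrays alone, 20 with array weights, and 6 to 19 when 1 array was left out (6 without basal KO 2, 7 without TAC KO 4, 19 without TAC WT 3). Of all genes 44.5% were called in KO, against 49.9% with the comparison's arrays alone and 57.7% with array weights. The share was 33.6% without basal KO 2, 34.7% without TAC KO 4 and 50% without TAC WT 3. In these settings the KO count of members and the share of all genes moved in the same direction. In others they moved apart, as without TAC KO 1 (14 members, 43.3%) and with the stricter filter (10 members, 52%). In WT they moved apart with array weights, among others (8 members, 52.5%). KO against WT after TAC gave 10 with array weights and 0 in its other alternatives, and the remaining 2 comparisons gave 0 in all of theirs. A fit on fewer arrays has fewer degrees of freedom and its own estimate of spread. The fit on all arrays shared 1 spread per gene over groups whose median SDs ran from 0.08 in basal WT to 0.327 in TAC WT. The part of either in these counts was not tested.

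The replicate number as a block gave 11 members in WT and 13 in KO, where the call gained was Pdk4. In those fits 52.3% of all genes were called in WT and 46.1% in KO, against 50.7% and 44.5% without the block. Arrays of the same number deviated together with r of -0.026, 0.073 and -0.009 in basal hearts and 0.594, -0.060, -0.072 and 0.489 after TAC. Arrays of different numbers after TAC had r from -0.579 to 0.576. Equal numbers thus did not stand out, and they were not taken as pairs. Among called members, Aco1 moved to log2 0.53 in WT and 0.52 in KO without its cross-binding probe set, Dlst in WT to log2 -0.28 with the mean of probe sets, and with array weights Idh2, Idh3g, Ogdh and Suclg2 in WT to log2 -0.53, -0.30, -0.38 and -0.42. Quantile normalization moved the median of all genes in WT from log2 0.018 to -0.100 and that of the members from -0.247 to -0.279. Levels near the filter limit Pdp2 and Pdk3.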
